A study of Mus musculus with 5 samples.

Results

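The genes described are 45 mouse genes of the cell cycle, 21 of S phase and 24 of G2 phase and mitosis (G2M), chosen by name and matched by symbol. All 45 were found among the 24860 gene symbols counted in every library. The libraries are single-cell RNA-seq of tumours that grew from injected SSM2 cells (a line from a mouse mammary tumour), with the cells of the host around them. There were 2 placebo and 3 progesterone libraries in 2 batches named by the sample titles, Placebo 1 and Progesterone 1 in batch 1, and Placebo 2, Progesterone 2 and Progesterone 3 in batch 2.

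All mice received 100000 SSM2 cells in the mammary gland on the left side at 10 to 12 weeks of age. A pellet of 60 mg with release over 60 days, of progesterone (P4), the steroid ligand of the progesterone receptor, or of placebo, was placed under the skin. Tumours were taken 28 to 62 days later, and the day is not given per library. SSM2 is 1 cell line, and the epithelial markers used here do not tell injected tumour cells from the host's own mammary epithelium. Whether the libraries come from separate animals is not stated in the labels, and in their deposited names Progesterone 2 and Progesterone 3 carry a common identifier with L in one and R in the other. All p-values therefore measure at most the spread between libraries, which may be technical. In the edgeR fits part or most of that spread is what edgeR shares across genes.

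Depth differed between batches. The median barcode held 6172 to 8211.5 UMIs (unique molecular identifiers, 1 per captured transcript) in batch 1 and 23702 to 25315.5 in batch 2, and 2191 to 5583 cells per library were kept. At most 12 cell barcodes were shared by any pair of libraries, and at most 0.312% of the smaller library of a pair. The libraries also held different cells. Placebo 1 held 4153 T cells, 16 macrophages, 5 fibroblasts and 1 epithelial cell, while each library of batch 2 held 2779 to 3259 epithelial cells and 36 to 91 T cells. Comparisons of epithelial cells and fibroblasts therefore set Placebo 2 against Progesterone 2 and Progesterone 3. Classes were named from marker genes in a clustering that left out the 45 genes and further cell cycle genes, and each name means "epithelial-like", "macrophage-like" and so on. Summed markers of the epithelial class (Epcam, 4 keratins and 3 claudins) lay at 16585 to 29108 UMIs per 1000000 UMIs of the class (CPM) in the 4 libraries with at least 10 such cells.

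Before a cell divides it copies its DNA in S phase and then, after the gap of G2, separates the copies in mitosis. The S phase genes encode the MCM helicase that opens origins of replication, the enzymes that make deoxynucleotides, and the clamp and repair proteins of the replication fork. They are switched on by E2F factors at the passage from G1 to S. The G2M genes encode the kinases that drive mitosis, the motors and centromere proteins of the spindle, and the ubiquitin machinery that ends it. Their promoters commonly carry CCAAT boxes and a cell cycle homology region (CHR), which bind NF-Y and the MuvB complexes with B-MYB and FOXM1. In tumours these genes mark dividing tumour cells, and among immune cells dividing lymphocytes, while mature neutrophils do not divide.

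Promoter sequences from the RefSeq table on GRCm38.p6 (250 bases before to 50 after each start) were matched for 41 of the 45 genes, all but Mcm4, Gins2, Aurkb and Tpx2. An E2F-type motif, TTTGGCGC or TTTCGCGC on either strand, was present in 7 of 19 S promoters (36.8%), in 1 of 22 G2M promoters (4.55%) and in 0.929% of the 27025 genes in the table. The CHR motif TTTGAA was present in 3 of 19 S promoters (15.8%), in 16 of 22 G2M promoters (72.7%) and in 20.2% of all genes. CCAAT was present in 13 of 19 S promoters (68.4%), 18 of 22 G2M promoters (81.8%) and 41.1% of all genes, and CCAAT with TTTGAA in 2 S promoters (10.5%), 15 G2M promoters (68.2%) and 7.97% of all genes. Matches of the E2F-type motif on opposite strands can share bases. The following 5 stretches show the motifs in 2 helicase genes and in 3 G2M genes named below. Each runs 5′ to 3′ on the gene's own strand from 160 to 6 bases before the RefSeq start, with motifs of either strand in capitals. Mcm5 lies on the plus strand at chr8:75109349-75109503, Mcm6 on the minus strand at chr1:128359711-128359865, Top2a on the minus strand at chr11:99024195-99024349, Cdk1 on the minus strand at chr10:69352918-69353072, and Ube2c on the plus strand at chr2:164769769-164769923.
Mcm5: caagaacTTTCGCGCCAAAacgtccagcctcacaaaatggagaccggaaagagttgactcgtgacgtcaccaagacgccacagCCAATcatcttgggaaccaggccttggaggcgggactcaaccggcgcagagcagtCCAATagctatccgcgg
Mcm6: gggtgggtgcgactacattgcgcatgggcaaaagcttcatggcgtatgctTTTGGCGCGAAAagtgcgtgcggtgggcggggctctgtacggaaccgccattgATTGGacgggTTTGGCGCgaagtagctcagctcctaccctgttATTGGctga
Top2a: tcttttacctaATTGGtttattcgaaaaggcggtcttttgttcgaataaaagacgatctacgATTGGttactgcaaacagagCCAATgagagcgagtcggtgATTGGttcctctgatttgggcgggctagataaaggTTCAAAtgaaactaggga
Cdk1: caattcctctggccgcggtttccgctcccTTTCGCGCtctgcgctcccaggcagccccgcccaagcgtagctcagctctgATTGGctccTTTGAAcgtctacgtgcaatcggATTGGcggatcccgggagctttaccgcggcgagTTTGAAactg
Ube2c: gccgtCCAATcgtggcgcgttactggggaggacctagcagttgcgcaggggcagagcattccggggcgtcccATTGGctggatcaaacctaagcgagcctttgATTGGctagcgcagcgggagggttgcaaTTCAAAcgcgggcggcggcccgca
In these stretches Mcm5 has 2 E2F-type matches, which overlap, and Mcm6 has 3, of which 2 overlap. Both have 2 CCAAT boxes and no CHR motif. Top2a has 4 CCAAT boxes and Ube2c 3, each with 1 CHR motif and no E2F-type match. Cdk1 has 1 E2F-type match, 2 CHR motifs and 2 CCAAT boxes. A match describes these letters and is no evidence of binding.

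Each cell was thinned at random to 2000 UMIs, shallower cells were left out, and a cell was called cycling when it held a UMI of at least 3 different members. Among classes and libraries with at least 20 cells after thinning, cycling cells were found in all but the plasmacytoid dendritic cells of Progesterone 1. Among epithelial cells 20.4% cycled in Progesterone 1 (10 of 49, 95% Clopper-Pearson interval 10.2 to 34.3%), 18.6% in the Placebo 2 library (515 of 2772, 17.1 to 20.1%), 23.3% in Progesterone 2 (718 of 3077, 21.8 to 24.9%) and 18.4% in Progesterone 3 (597 of 3240, 17.1 to 19.8%). In batch 2 Progesterone 2 stood above the placebo library and Progesterone 3 did not, and the mean difference of 2.30 percentage points was smaller than the gap between these progesterone libraries (exact permutation within batches p = 1, smallest possible 0.333). Thinning left out 38 of 9177 epithelial cells. Without thinning 81.1 to 97.0% of epithelial cells carried 3 members, a share that follows depth (median 37653 to 50231 UMIs), so the thinned share is used throughout. Intervals cover counting error only.

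The share of cycling macrophages was 2.75% in Progesterone 1 (8 of 291), 12.4% in the Placebo 2 library (76 of 611), 11.8% in Progesterone 2 (115 of 972) and 10.4% in Progesterone 3 (62 of 594). The epithelial share was higher in 4 of 4 libraries, by 10.8 percentage points on average (SD 5.07, range 6.14 to 17.7, exact sign-flip p = 0.125, the smallest that 4 libraries allow, adjusted p = 0.25 over 4 pairs of classes). The T cell share was also above that of macrophages in 4 of 4 libraries, by 11.4 points (SD 5.47, exact p = 0.125, adjusted p = 0.25). Median depths differed in opposite ways, with 12221 to 19705.5 UMIs in these macrophages and 4080.5 to 8381.5 in the T cells. Without thinning the mean gap of T cells to macrophages was -14.1 points. The call also separated T cells less. With cells called on the other members, a median of 14.8% of an S member's UMIs lay in called T cells. In macrophages this median was 40.9%, so the 2 shares are not like measures of division.

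Fibroblasts cycled in 7.32% of cells in the Placebo 2 library (23 of 314, 4.70 to 10.8%), 16.1% in Progesterone 2 (9 of 56, 7.62 to 28.3%) and 15.4% in Progesterone 3 (18 of 117, 9.38 to 23.2%). Both progesterone libraries lay above the placebo library, by 8.40 points on average (exact p = 0.333, the smallest possible), and the intervals of single libraries overlap. Thinning left out 33, 15 and 26 fibroblasts of these libraries, and the unthinned shares were 70.6%, 71.8% and 55.9%, where the difference is -6.72 points. Conventional dendritic cells (cells that present antigen to T cells) cycled in 4.76% in Progesterone 1 (1 of 21), 5.56% in the Placebo 2 library (4 of 72), 15.7% in Progesterone 2 (13 of 83) and 11.8% in Progesterone 3 (9 of 76). Plasmacytoid dendritic cells, the interferon-producing type, had no cycling cell among 31 of Progesterone 1 (0 cells, so that a share as high as 9.68% is allowed), and 2.08%, 4.55% and 7.32% in Placebo 2, Progesterone 2 and Progesterone 3. Endothelial cells, which line vessels, had a share in Placebo 2 alone (7 of 30, 23.3%, 9.93 to 42.3%), at a median depth of 1554.5 UMIs.

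Lymphocytes were split by state. Naive CD4 T cells, named from markers of T cells that have not met antigen, cycled in 7.86% in Placebo 1 (208 of 2647) and 6.06% in Progesterone 1 (6 of 99). Most calls sat at the threshold, with exactly 3 members in 174 of 214 cells. The class includes T cell cluster 8 (94 cells in Placebo 1 and 2 in Progesterone 1), with Cenpf, Mki67 and Uhrf1 among its leading genes. T cell cluster 10, led by H2-Ab1 and H2-Eb1, held 5 of the class's 2665 cells in Placebo 1 and 89 of 107 in Progesterone 1. The part of these clusters in the naive shares was not tested. Regulatory T cells, which restrain other T cells, cycled in 12.5% in Placebo 1 (19 of 152), 14.9% in Progesterone 1 (10 of 67), 20.4% in the Placebo 2 library (11 of 54), 33.3% in Progesterone 2 (7 of 21) and 26.1% in Progesterone 3 (12 of 46). Within both batches the progesterone libraries lay higher, by 5.88 points on average, with intervals as wide as 14.6 to 57.0% in Progesterone 2 (exact p = 0.333). The difference was -5.19 points without thinning and -0.492 with a call on 5 members. Different clusters held the class in batch 1, where cluster 7 held 100 of the 155 regulatory T cells of Placebo 1 and 3 of the 76 of Progesterone 1, and cluster 11 held the other 55 and 73. In Progesterone 2 12 of the 26 regulatory T cells lay above 2000 CPM of epithelial markers, and free epithelial RNA could give at most 28.04% of their G2M UMIs. The part of either in the difference was not tested. Against all naive T cells of batch 1 the regulatory share was higher by 7.15 points and the effector CD8 share by 6.59 points, each in 2 of 2 libraries (exact p = 0.5 each, the smallest possible). NK cells cycled in 27.6% in Placebo 1 (35 of 127), 11.6% in Progesterone 1 (16 of 138) and 17.4% in Placebo 2 (4 of 23). All T cells together cycled in 8.48%, 11.3%, 17.6%, 29.0% and 25.0% in the libraries of batch 1, placebo first, and then of batch 2, placebo first (difference 6.12 points, exact p = 0.167, the smallest possible), but naive CD4 cells were 2665 of the 4153 T cells in Placebo 1 and 1 at most in each library of batch 2. T cells above 2000 CPM of epithelial markers were 0 of 4153 in Placebo 1 and 1 of 456 in Progesterone 1, and 22 of 91, 18 of 36 and 13 of 63 in Placebo 2, Progesterone 2 and Progesterone 3. Their part in the T cell values was not tested. Over all libraries 320 of the 430 T cells called cycling had exactly 3 members, and 29 T cells had at least 3 G2M members.

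Mature neutrophils do not divide, and the neutrophil class stands here as a measure of background. It is an imperfect one, since its leading genes include Prtn3, Elane, Camp and Ngp, granule genes that immature neutrophils make. Its cells were called in 4.49% in Progesterone 1 (11 of 245), 13.04% in Progesterone 2 (3 of 23, 2.78 to 33.6%) and 5.00% in Progesterone 3 (1 of 20), at median depths of 2352 to 3621 UMIs. The share of 13.04% rests on 3 cells, and without Progesterone 2 the highest neutrophil share was 5.00%, below the macrophages of all 3 libraries of batch 2. Naive T cells, plasmacytoid dendritic cells, macrophages and the fibroblasts of Placebo 2 lay below 13.04%, among others. The interval of 2.78 to 33.6% also covers all shares of epithelial cells, fibroblasts, conventional dendritic cells, NK cells, T cells and regulatory T cells given above. At this depth neither the shares below 13.04% nor those above it can be told from that of the neutrophils of Progesterone 2. With the stricter call on 3 G2M members the neutrophils of batch 2 had 0 of 23 and 0 of 20 cells, with exact upper bounds of 14.8% and 16.8%. The free transcripts of tumour cells were bounded from the epithelial markers found in each class. At most 50.8 to 54.7% of the G2M UMIs of neutrophils in Progesterone 2 and Progesterone 3 could come from that source, 25.5 to 52.9% of those of plasmacytoid dendritic cells in batch 2, and 4.04 to 9.74% of those of fibroblasts and 4.93 to 8.40% of those of macrophages in batch 2. For T cells the bound was 4.38% in the Placebo 2 library, 10.3% in Progesterone 2 and 5.86% in Progesterone 3.

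**Figure D1:**
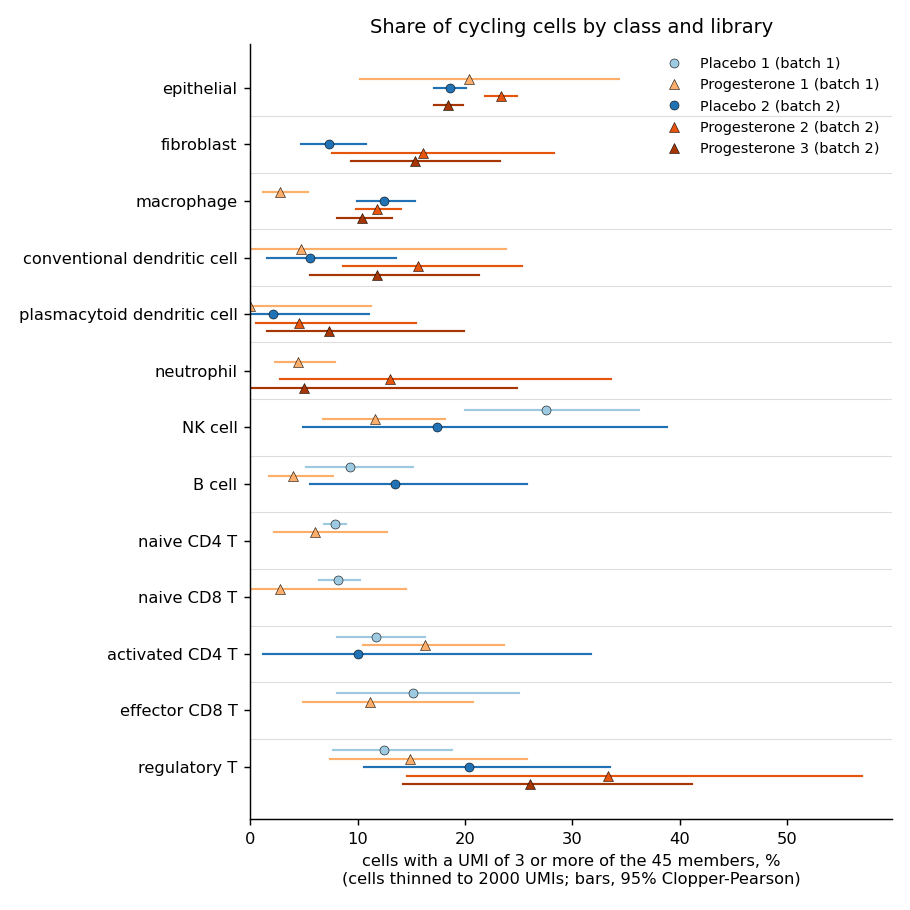
Share of cells with a UMI of 3 or more of the 45 members after thinning to 2000 UMIs (x axis, %) for 13 classes (y axis), with 1 point per library of at least 20 thinned cells and bars for the 95% Clopper-Pearson interval. Circles are placebo and triangles progesterone libraries. Epithelial cells lie at 18.4 to 23.3% in every library shown, macrophages at 2.75 to 12.4%, and regulatory T cells at 12.5 to 33.3% with wide bars.

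The balance of the phases was taken from the UMIs of cycling cells, in libraries with at least 10 of them. In cycling epithelial cells the G2M members held 60.0% of all member UMIs in Progesterone 1, 52.6% in the Placebo 2 library, 64.9% in Progesterone 2 and 66.4% in Progesterone 3. In macrophages the share was 47.1% in the Placebo 2 library, 57.7% in Progesterone 2 and 61.9% in Progesterone 3, and in fibroblasts 32.4% in Placebo 2 and 65.2% in Progesterone 3. In T cells it was 24.5% in Placebo 1 and 47.4% in Progesterone 1, and 29.8% in Placebo 2 and 47.3% in Progesterone 3. In regulatory T cells it was 33.0% in Placebo 1 and 54.7% in Progesterone 1, and 28.2% in Placebo 2 and 50.6% in Progesterone 3. Where both sides of a batch had at least 10 cycling cells, the progesterone libraries lay above the placebo library. This order holds for thinned cycling cells. Over all UMIs of a class, the ratio of G2M to S members in batch 1 was lower in Progesterone 1 than in Placebo 1 for regulatory T cells (0.441 against 0.790), macrophages (0.397 against 1.64), B cells (0.194 against 0.289), naive CD4 T cells (0.233 against 0.284) and naive CD8 T cells (0.0941 against 0.237). Differences within batches were 13.1 points in epithelial cells, 32.8 in fibroblasts, 12.7 in macrophages, 20.2 in T cells, 22.1 in regulatory T cells, 22.0 in activated CD4 T cells and 3.88 in NK cells. Without thinning the difference was -11.7 points in macrophages and 0.053 in regulatory T cells, and for the latter it was 7.83 at 4000 UMIs. The unthinned values cover more libraries. Then 93.75% of the 16 macrophages of Placebo 1 were called, so batch 1 entered, where thinned it had 1 and 8 cycling cells. Over all macrophage UMIs the G2M to S ratio was 0.708 in Placebo 2, 0.958 in Progesterone 2 and 1.03 in Progesterone 3. For regulatory T cells Progesterone 2 entered, with 50% of 26 cells called against 7 cells thinned. The 2 clusters of regulatory T cells that divide Placebo 1 from Progesterone 1 apply to the G2M share too. No difference passed the exact permutation test, and none could in this design. The exact p was 0.333 for epithelial cells and macrophages and 0.5 for T cells and regulatory T cells, the smallest possible, and 1 for the other classes, where 1 placebo library stood against 1 progesterone library. The classes of a library share its preparation, so they are not separate replicates.

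Cells were also called on each phase alone, a setting added after the values above were seen. Cells with at least 3 G2M members made up 8.33% of epithelial cells in the Placebo 2 library, 12.4% in Progesterone 2 and 8.80% in Progesterone 3, and cells with at least 3 S members 10.3%, 10.9% and 7.16%. In fibroblasts the G2M call took 2.55% (8 of 314) in the Placebo 2 library, 12.5% (7 of 56) in Progesterone 2 and 9.40% (11 of 117) in Progesterone 3, against 6.05%, 5.36% and 7.69% for the S call. In macrophages the G2M call took 5.24%, 5.66% and 5.22% in batch 2 and the S call 7.20%, 4.84% and 3.87%. The difference within batch 2 was 8.40 points for the G2M call in fibroblasts and -2.85 points for the S call in macrophages (exact p = 0.333 each, the smallest possible). In T cells the G2M call took 0.246%, 1.89%, 1.18%, 16.1% and 8.93% in the order of libraries above, where the shares of Progesterone 2 and Progesterone 3 rest on 5 cells each (difference 6.50 points, exact p = 0.167, the smallest possible).

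**Figure D2:**
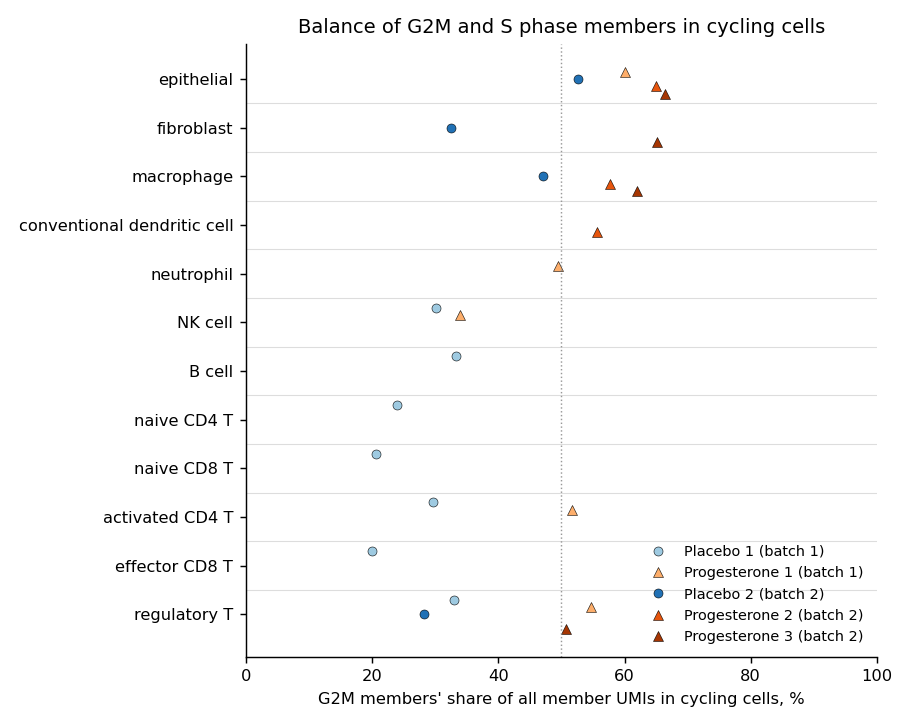
G2M members' share of all member UMIs in cycling cells (x axis, %) by class (y axis), 1 point per library with at least 10 cycling cells, circles for placebo and triangles for progesterone; the dotted line marks 50%. Progesterone points lie to the right of the placebo points of the same class and batch, for example 64.9 and 66.4% against 52.6% in epithelial cells.

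The UMIs of each class were summed per library and every gene was tested with edgeR, with batch as a covariate. In epithelial cells, of 24 G2M members 15 rose, 1 fell and 8 did not pass, with a median log2 ratio of 0.67, and of 21 S members 9 fell, none rose and 12 did not pass, with a median of -0.39. The median of the 16279 genes tested was 0.02. Many genes passed in this class, 49.9% of all tested, 24.4% higher and 25.5% lower, against 25 of the 45 members. The count of members called either way is thus near the share of all genes. By direction, 15 of 24 G2M members were called higher and 9 of 21 S members lower. The fit left 1 residual degree of freedom, the difference between Progesterone 2 and Progesterone 3, whose deposited names carry a common identifier. The spread was taken from that pair and from what edgeR shares across genes, and none was measured between placebo libraries. The fibroblast fit below has the same limit. Different clusters also held most of the class in each group, cluster 21 in Placebo 2 and clusters 16, 18, 19 and 20 in the progesterone libraries.

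Among replication and repair genes, Ung, the uracil glycosylase that removes uracil from DNA, was at 6.70 CPM in Progesterone 1, 18.9 in the Placebo 2 library, 9.08 in Progesterone 2 and 8.13 in Progesterone 3. The placebo library stood above both progesterone libraries of its batch, and the log2 ratio was -1.29 ± 0.11 (SE). Progesterone 1, alone in its batch, does not inform the ratios of this class. Pcna, the sliding clamp of DNA polymerases, was at 57.3, 114, 78.5 and 67.2 CPM in the same order of libraries and fell by 0.80 ± 0.11 on the log2 scale (edgeR adjusted p = 8.12e-05). Uhrf1, which carries DNA methylation over to new strands, was at 9.68, 28.7, 21.8 and 16.4 CPM and fell by 0.74 ± 0.20 (edgeR adjusted p = 0.0349). The others that fell were Cdc45 and Cdc6 of origin firing and licensing (-0.58 and -0.52), Chaf1b of histone loading (-0.54), Tyms, which makes thymidylate (-0.45), and the helicase subunits Mcm6 (-0.45) and Mcm2 (-0.31). Mcm5, at 13.8, 20.4, 18.6 and 13.9 CPM, did not pass (log2 ratio -0.48 ± 0.19, edgeR adjusted p = 0.0938). Hells, a chromatin remodeller, was the S member farthest above placebo, at 107, 48.9, 91.4 and 68.4 CPM, and did not pass (0.55 ± 0.22, edgeR adjusted p = 0.131). Rrm2, the regulated subunit of ribonucleotide reductase, was at 8.19, 31.6, 20.9 and 14.3 CPM and did not pass (-1.003 ± 0.333, edgeR adjusted p = 0.141).

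Mitotic motors and kinases were among the genes that rose. Kif20b, a kinesin of cell separation, was at 13.8 CPM in Progesterone 1, 8.16 in the Placebo 2 library, 21.9 in Progesterone 2 and 17.7 in Progesterone 3, and rose by 1.12 ± 0.15 on the log2 scale (edgeR adjusted p = 0.000218). Kif23, a kinesin of the midzone between separating chromosomes, was at 10.8, 9.59, 23.5 and 18.2 CPM and rose by 0.96 ± 0.17 (edgeR adjusted p = 0.00318). Aurka, the kinase of spindle poles, was at 20.1, 14.99, 35.3 and 28.6 CPM and rose by 0.93 ± 0.14 (edgeR adjusted p = 0.000821). For these 3 genes Progesterone 2 and Progesterone 3 lay above the placebo library of their batch. Ube2c, the ubiquitin-conjugating enzyme of the anaphase-promoting complex, was at 36.5, 84.6, 167 and 145 CPM and rose by 0.72, while the 53 cells of Progesterone 1 lay below Placebo 2. Also higher were Tpx2 (0.89), Cenpe (0.75), Ttk (0.73), Ccnb2 (0.72), Cenpf (0.70), Hmmr (0.69), Kif11 (0.68), Cenpa (0.67), Plk1 (0.64), Tacc3 (0.63) and Ccnb1 (0.53).

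Cdk1 was the G2M member that fell. Cdk1, the kinase that starts mitosis, was at 11.9 CPM in Progesterone 1, 56.2 in the Placebo 2 library, 48.1 in Progesterone 2 and 38.3 in Progesterone 3 and fell by 0.54 ± 0.15 on the log2 scale (edgeR adjusted p = 0.0229). Birc5, survivin, a partner of Aurora B, was at 32.8, 74.4, 66.5 and 50.7 CPM and did not pass (-0.50 ± 0.19, edgeR adjusted p = 0.104). Top2a, the topoisomerase that untangles chromosomes, was at 54.0, 52.1, 107 and 81.5 CPM, with both batch 2 progesterone libraries above placebo, and did not pass (0.70 ± 0.21, edgeR adjusted p = 0.0605). Mki67, the protein that coats mitotic chromosomes and the usual marker of dividing cells, was at 29.8, 30.4, 43.8 and 34.5 CPM and did not pass (0.21 ± 0.16, edgeR adjusted p = 0.332). Aurkb, Bub1, Bub1b, Cdc20 and Nusap1 also did not pass, at log2 ratios of 0.03 to 0.43. With the batch term left out 1 member passed in place of 25, and with the summed counts thinned to the smallest library 15 passed, 9 of them G2M members that were higher and 3 S members that were lower.

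**Figure D3:**
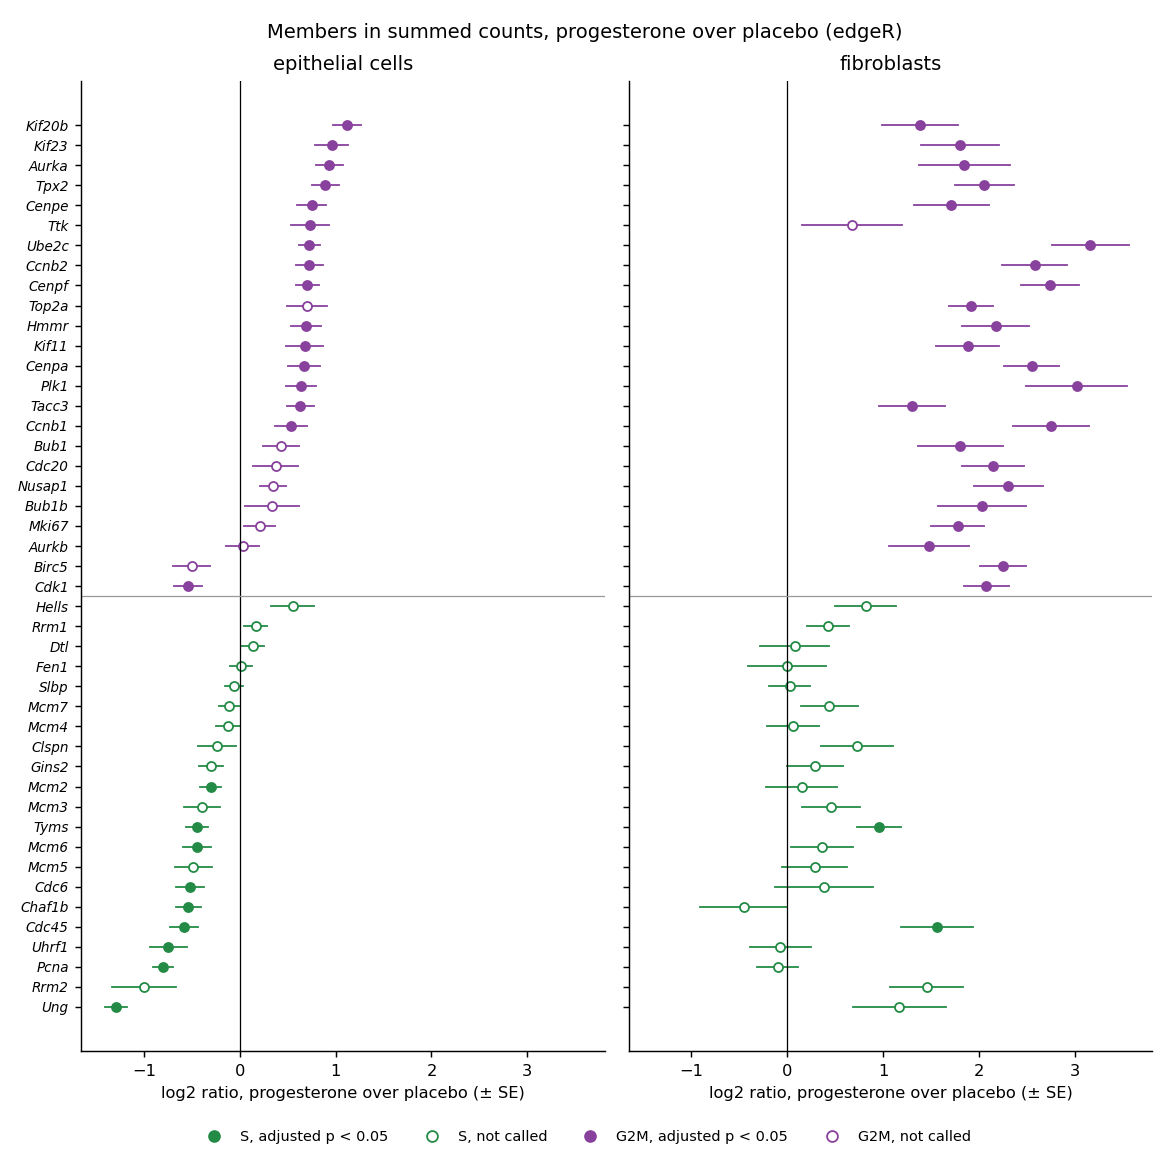
Log2 ratio of each member in progesterone over placebo libraries (x axis, with SE bars) in epithelial cells (left) and fibroblasts (right) from edgeR on summed counts, S members below and G2M members above the grey line. Filled points passed an adjusted p of 0.05. Epithelial S members lie mostly below 0 and G2M members above it, and 23 of 24 G2M members are filled in fibroblasts.

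The clusters of the epithelial class had different shares of cycling cells, given here as a description. In cluster 20 the share of cycling cells was 38.1% in Progesterone 2 (451 cells, 35.3 to 40.9%) and 31.6% in Progesterone 3 (312 cells, 28.7 to 34.6%), and the summed G2M members reached 1469 and 1206 CPM. In cluster 16 it was 12.1% and 11.5%, with 294 and 284 CPM, and in cluster 19 it was 24.1% and 17.01%. Cluster 18 had 7.92% and 9.60%, the lowest shares in these 2 libraries, and its G2M part of the member UMIs was 71.3% and 82.6%, the highest in them. In Progesterone 1 cluster 18 had 14.3% (3 of 21). Cluster 21, which was nearly all of Placebo 2, had 18.9% (508 of its cells), 544 CPM of G2M members and a G2M part of 52.5%. The 34 cells of Placebo 2 in cluster 20 had 4 cycling cells (11.8%, 3.30 to 27.5%) and 204 CPM. Ube2c was among the 10 leading genes of cluster 20 although the members were left out of the clustering. With 1 placebo library, cluster and library cannot be told apart.

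**Figure D4:**
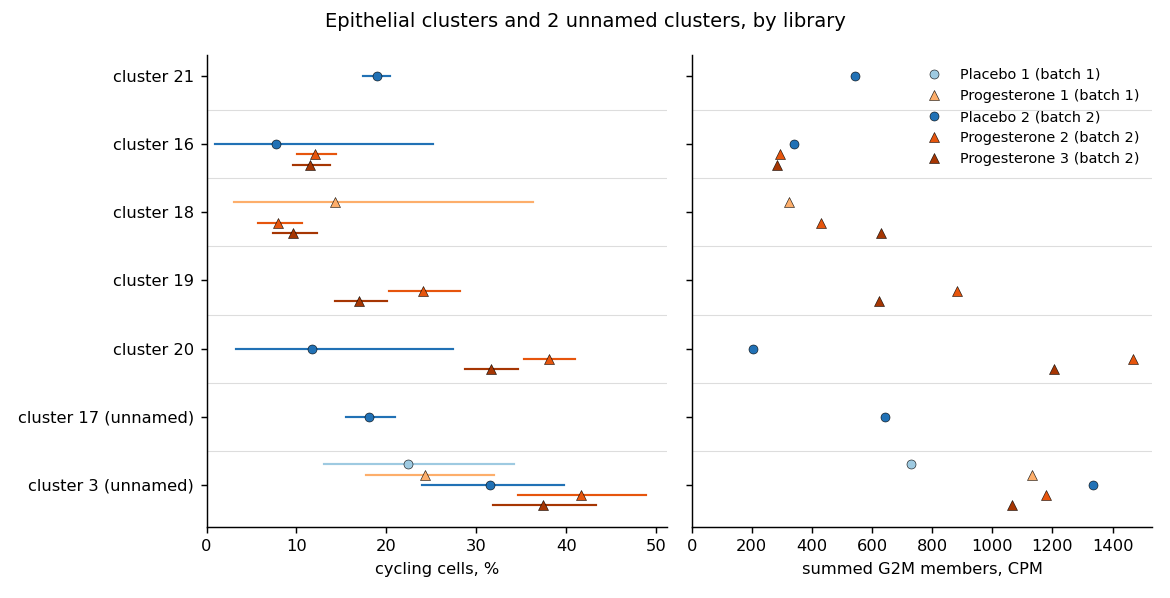
Share of cycling cells (left, %, with 95% Clopper-Pearson bars) and summed CPM of the 24 G2M members (right) in the 5 epithelial clusters and in unnamed clusters 17 and 3 (y axis), 1 point per library with at least 20 cells. Cluster 20 stands highest among the epithelial clusters in Progesterone 2 and Progesterone 3 (38.1 and 31.6%), and the placebo cluster 21 lies at 18.9%.

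In fibroblasts, of 24 G2M members 23 rose, all but Ttk, with a median log2 ratio of 2.04, while 2 of 21 S members rose, none fell and the S median was 0.36 (edgeR, 11482 genes). Over all genes 5.26% passed, 3.17% as higher and 2.09% as lower, with a median of -0.01. Summed G2M members were at 246 CPM in Progesterone 1 (29 cells, alone in its batch), 185 in the Placebo 2 library, 721 in Progesterone 2 and 861 in Progesterone 3, and summed S members at 280, 434, 591 and 439. Both progesterone libraries of batch 2 lay above the placebo library for G2M, and for S Progesterone 3 lay near it.

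Ube2c was at 5.72 CPM in Progesterone 1, 13.4 in the Placebo 2 library, 80.0 in Progesterone 2 and 139 in Progesterone 3, and the log2 ratio was 3.16 ± 0.40 (edgeR adjusted p = 0.0055). Plk1, the polo kinase needed for spindle assembly, was at 0, 0.948, 8.83 and 12.3 CPM in the same order and rose by 3.02 ± 0.52 (edgeR adjusted p = 0.00067). Ccnb1, the cyclin partner of Cdk1, was at 5.72, 3.79, 17.7 and 32.5 CPM and rose by 2.75 ± 0.39 (edgeR adjusted p = 0.000288). For these genes both batch 2 progesterone libraries stood above Placebo 2, and the Placebo 2 and batch 1 levels were low. Cdk1 itself was at 22.9, 23.8, 86.5 and 96.4 CPM and rose by 2.08 ± 0.24 (edgeR adjusted p = 5.56e-06). Top2a was at 11.4, 25.0, 91.8 and 81.1 CPM and rose by 1.91 ± 0.23, and Mki67 was at 34.3, 10.7, 33.0 and 35.1 CPM and rose by 1.78 ± 0.28. The lowest rises were those of Tacc3 (1.30), Kif20b (1.39) and Aurkb (1.48), and Ttk, a checkpoint kinase, was at 0, 4.03, 8.24 and 4.54 CPM (0.67 ± 0.52, edgeR adjusted p = 0.618).

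Of the S members in fibroblasts, Cdc45, which loads on the helicase, was at 0, 6.05, 21.8 and 13.6 CPM and rose by 1.57 ± 0.37 (edgeR adjusted p = 0.013). Tyms was at 22.9, 28.3, 54.1 and 46.4 CPM and rose by 0.96 ± 0.23 (edgeR adjusted p = 0.0124). Rrm2 was at 11.4, 16.4, 58.3 and 27.9 CPM and did not pass (1.46 ± 0.38, edgeR adjusted p = 0.0785). Pcna (-0.10 ± 0.22) and Mcm5 (0.29 ± 0.34) did not pass.

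These fibroblast values rest on few cells. The single cell with most G2M UMIs held 21.04% of the class's G2M UMIs in the Placebo 2 library, 46.4% in Progesterone 2 and 18.7% in Progesterone 3, and without that cell in each library 15 members passed, 13 of them G2M members that were higher. The median epithelial marker level was 544 CPM in the 8 G2M cells of Placebo 2 against 489 in its other fibroblasts, 346 against 455 in Progesterone 2 and 445 against 412 in Progesterone 3. Without fibroblasts above 2000 CPM of epithelial markers 18 members passed, 16 of them G2M members that were higher. With DESeq2 4 members passed, without the batch term none did, and with the summed counts thinned to the smallest fibroblast library 1 did.

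The effect differed between fibroblasts and epithelial cells of the same libraries for many members. In an edgeR fit of batch 2 with the library as a block, chosen after the values above were seen, the effect of progesterone was larger in fibroblasts for 24 members, 19 of G2M and 5 of S phase, and smaller for none, where 16.2% of all 15334 genes passed (8.46% larger and 7.7% smaller). The 3 largest differences, named after the values were seen, were those of Plk1 (2.96 ± 0.61, edgeR adjusted p = 3.03e-05), Birc5 (2.75 ± 0.22) and Cdk1 (2.59 ± 0.22), the last of which fell in epithelial cells and rose in fibroblasts. Among S members Ung (2.48 ± 0.48), Rrm2 (2.41 ± 0.30), Cdc45 (2.17 ± 0.43), Tyms (1.35 ± 0.29) and Pcna (0.62 ± 0.19) differed. Kif20b (0.31 ± 0.41) and Ttk (-0.04 ± 0.54) did not pass. In this fit too the spread was taken from the pair of Progesterone 2 and Progesterone 3 and from what edgeR shares across genes.

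In macrophages no member passed with all 5 libraries, where 0.0504% of 11906 genes did (edgeR). At an unadjusted p under 0.05 there were 7 members, all of S phase, and with DESeq2 1 member passed. The 16 macrophages of Placebo 1 set batch 1 apart from batch 2. Top2a was at 178 CPM in them, 6.61 in Progesterone 1, 53.1 in the Placebo 2 library, 45.4 in Progesterone 2 and 38.0 in Progesterone 3 (log2 ratio -1.95 ± 1.12, edgeR adjusted p = 0.517). Mki67 was at 90.1, 11.2, 48.6, 60.7 and 61.1 CPM, so that placebo was higher in batch 1 and lower in batch 2 (-0.79 ± 0.82). Slbp, which binds histone mRNA, was at 66.4, 58.8, 84.9, 78.0 and 70.4 CPM. Cdk1 was at 75.9, 1.36, 27.2, 24.6 and 18.01 CPM, Mcm5 at 42.7, 4.07, 25.5, 14.7 and 10.6, and Pcna at 194, 97.8, 186, 144 and 127. The log2 ratio of Cdk1 was -1.70 ± 1.17. For Mcm5 and Pcna the placebo library was the higher one in both batches, and neither passed (log2 ratios -1.56 ± 0.50 and -0.62 ± 0.21, edgeR adjusted p = 0.293 and 0.274).

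Without Placebo 1, where batch 2 alone informs the comparison, 8 of 45 macrophage members passed against 16.2% of all genes (7.43% higher and 8.75% lower), a count near the share of all genes. Of these, 7 S members fell, Rrm2 (-1.13 ± 0.24), Mcm5 (-0.95 ± 0.21), Mcm6 (-0.87 ± 0.23), Mcm2 (-0.84 ± 0.21), Uhrf1 (-0.77 ± 0.22), Rrm1 (-0.63 ± 0.19) and Mcm3 (-0.48 ± 0.17). The centromere histone Cenpa rose (0.81 ± 0.18), from 33.9 CPM in Placebo 2 to 53.9 and 63.2. Without Placebo 2 instead, 36 members fell and none rose, where 15.7% of 12216 genes passed and 7.34% fell, and this count rests on the 16 cells of Placebo 1. The 2 macrophage clusters differed in Placebo 2, with 15.8% cycling in cluster 7 (59 cells) and 7.17% in cluster 9 (17 cells), against 15.4% and 11.1% in Progesterone 2 and 9.23% and 10.8% in Progesterone 3. Cluster 7 held 391 of the 628 macrophages of Placebo 2, and cluster 9 held 805 of 975 and 464 of 595 in the progesterone libraries.

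In T cells no member passed (edgeR, 0.0145% of 6874 genes), and 7 of 11 tested G2M members and 1 of 16 S members had an unadjusted p under 0.05, and none passed with DESeq2. Only these 11 of 24 G2M members were past the filter on low counts, which can favour genes higher in the progesterone libraries. For no class was the share of all genes at an unadjusted p under 0.05 counted, so such counts are not read as a result. Top2a was at 16.7 CPM in Placebo 1, 91.2 in Progesterone 1, 59.0 in the Placebo 2 library, 105 in Progesterone 2 and 157 in Progesterone 3, higher with progesterone in both batches (1.76 ± 0.35, edgeR adjusted p = 0.425). Mki67 was at 6.06, 40.1, 70.0, 128 and 81.4 CPM and Ube2c at 2.46, 14.1, 7.37, 72.1 and 29.1 (1.55 ± 0.51 and 2.42 ± 0.56, edgeR adjusted p = 0.631 and 0.425). Pcna was at 161, 134, 206, 72.1 and 204 CPM, with each progesterone library below the placebo library of its batch (-0.46 ± 0.34). Mcm5, at 9.74, 18.2, 51.6, 16.6 and 23.3 CPM (-0.18 ± 0.54), and Cdk1, at 1.09, 7.54, 36.9, 11.1 and 29.1 (0.76 ± 0.77), were higher with progesterone in batch 1 and lower in batch 2. In Progesterone 2 a single cell held 66.9% of the G2M UMIs of the 36 T cells. The groups also differed in their T cell states and in their epithelial markers, as given above, and the part of these in the values was not tested.

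Within single T cell states the counts were small. In activated CD4 T cells Ube2c was at 0.835 CPM in Placebo 1, 36.6 in Progesterone 1, 9.51 in Placebo 2 and 26.1 in Progesterone 3 and rose by 3.45 ± 0.70 (edgeR adjusted p = 0.00062), and Top2a was at 38.8, 198, 0 and 26.1 CPM and rose by 2.30 ± 0.58 (edgeR adjusted p = 0.0163). These were the 2 of 18 tested members that passed, where 0.505% of genes did, in libraries of 257, 142, 20 and 10 cells, and a single cell held 44.5% of the G2M UMIs in Progesterone 1. Ube2c rested on 2, 52, 1 and 1 UMIs. The fit left 1 residual degree of freedom, so its spread came largely from what edgeR shares across genes. Mki67 (2.13 ± 0.70, edgeR adjusted p = 0.186), Mcm5 (0.52 ± 0.62) and Pcna (-0.14 ± 0.43) did not pass. Neither Ube2c nor Top2a passed with DESeq2, without the batch term or with thinned counts. In regulatory T cells no member passed (0.0169% of genes, 1 member at an unadjusted p under 0.05, none with DESeq2). Mki67 was at 66.7, 47.5, 99.0, 33.7 and 93.8 CPM in the 5 libraries and Top2a at 87.4, 98.6, 85.6, 25.3 and 174, with log2 ratios of -0.48 ± 0.36 and 0.26 ± 0.46. The log2 ratios of Mcm5 (-0.60 ± 0.46), Pcna (-0.47 ± 0.32) and Cdk1 (-0.79 ± 0.62) did not pass.

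In the remaining classes no member passed with edgeR or DESeq2. Conventional dendritic cells had 30 tested members, all with a positive log2 ratio (0.163% of genes passed, 8 members at an unadjusted p under 0.05), and Mki67 was at 0, 59.2, 12.9, 61.8 and 27.9 CPM and Top2a at 0, 64.8, 15.98, 71.6 and 31.9 in the 5 libraries, the first of which held 11 cells (edgeR adjusted p = 0.31 and 0.331). Their Cenpa was at 0, 14.1, 41.1, 89.9 and 65.4 CPM, and the ratios of Pcna (0.78 ± 0.34), Mcm5 (0.95 ± 0.54) and Cdk1 (0.40 ± 0.52) did not pass. Only members past the filter on low counts were tested in this class, 17 of 21 S and 13 of 24 G2M members. That filter can favour genes that are higher in the 3 progesterone libraries, so the common sign is not read as a result. The median log2 ratio of the 8604 genes tested was 0.04. B cells had 19 tested members (0.481% of genes passed, 0.427% higher and 0.0534% lower, no member at an unadjusted p under 0.05), with Pcna at 138, 118, 143 and 106 CPM and Mki67 at 0, 3.09, 28.6 and 13.2 in the 4 libraries with at least 10 cells. Their log2 ratios were -0.17 ± 0.33 for Pcna, 0.52 ± 0.53 for Mki67, 0.35 ± 0.60 for Top2a and -0.77 ± 0.64 for Mcm5. Plasmacytoid dendritic cells had 9 tested members (1.78% of genes passed, 0.593% higher and 1.19% lower, 1 member at an unadjusted p under 0.05), with Pcna at 118, 77.7, 107 and 88.5 CPM in the 4 libraries other than Placebo 1 (0.34 ± 0.32), and no thinned cell had 3 G2M members. NK cells, which could not be fitted, had Top2a at 71.5, 126 and 0 CPM and Mki67 at 49.9, 55.4 and 5.84 in Placebo 1, Progesterone 1 and Placebo 2. Neutrophils of Progesterone 1 carried Mki67 at 136 CPM and Top2a at 126, and 4 of 245 had at least 3 G2M members (1.63%), while in Progesterone 2 and Progesterone 3 Mki67 was at 0 and Top2a at 26.6 and 0. Summed G2M members were at 878 CPM in the neutrophils of Progesterone 1, of which at most 1.01% could come from free epithelial RNA.

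Members were also compared between classes. Over macrophages, epithelial cells had 16 of 45 members higher and 3 lower (edgeR with the library as a block, 4 libraries). Of 12780 genes 67.8% passed, 35.3% as higher and 32.5% as lower. The count of members called higher is thus near the share of all genes, and the genes named are a description. Higher were Hells (2.84 ± 0.49), Dtl, an adaptor of protein destruction in S phase (1.49 ± 0.17), and Mcm6 (1.38 ± 0.41) of S phase, and Aurka (1.82 ± 0.29), Tpx2 (1.38 ± 0.42) and Ube2c (1.37 ± 0.34) of G2M. Lower were Pcna (-1.24 ± 0.12), Slbp (-1.21 ± 0.13), and Cenpa (-1.05 ± 0.19). Cdk1 was higher (0.88 ± 0.31), and Mki67 (-0.66 ± 0.37) and Top2a (0.81 ± 0.43) did not pass, nor did Mcm5. Over macrophages, T cells had 5 members higher and none lower in 5 libraries, of 21 S and 23 G2M members tested. Of 11052 genes 42.9% passed, 17.7% as higher and 25.2% as lower, so the higher count is not above the share of all genes. Higher were Hells (2.33 ± 0.43), Dtl (1.64 ± 0.44), Mcm4 (1.28 ± 0.28), Slbp (0.71 ± 0.25) and Kif23 (1.18 ± 0.33). Mki67 (-0.15 ± 0.69), Top2a (0.53 ± 0.89), Cdk1 (-0.79 ± 1.09), Mcm5 (0.25 ± 0.52) and Pcna (-0.23 ± 0.27) did not pass.

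The members also differed in how closely each kept to cycling cells. For every gene, cells were called on the other 44 members alone, and the share of the gene's UMIs in those cells was taken in thinned epithelial cells, of which at most 20.1% were then called. For G2M members the share ran from 60.4% (Aurka) to 91.4% (Ttk) with a median of 79.1%, and for S members from 22.7% (Slbp) to 83.2% (Rrm2) with a median of 43.5%. Slbp, Gins2 (29.2%) and Mcm4 (33.8%) lay nearest to the share of called cells, while 5 S members, Rrm2, Clspn (82.1%), Uhrf1 (67.9%), Cdc45 (63.2%) and Cdc6 (61.0%), lay within the range of the G2M genes. Slbp had a UMI in 7.35% of non-cycling and 8.91% of cycling epithelial cells, and Pcna in 10.9% and 22.9%, against 1.05% and 18.7% for Mki67. In cells with a given G2M member, the other members' UMIs were 67.3% (Cdk1) to 81.6% (Cdc20) G2M, and in cells with an S member 36.0% (Ung) to 60.5% (Cdc45), so the 2 lists did not overlap on this measure in epithelial cells. They overlapped in macrophages, with Dtl of S phase at 57.6% and Aurka of G2M at 51.6%, and in T cells, with Hells at 52.1% and Aurka at 9.09%. In macrophages Pcna had a UMI in 19.99% of non-cycling and 42.2% of cycling cells and Slbp in 12.6% and 20.4%, and Mki67, at 49.3% of its UMIs in called cells, stood below its share in epithelial cells (85.8%). In T cells Pcna had a UMI in 24.5% of non-cycling and 28.3% of cycling cells, Slbp in 21.2% and 20.1%, and Kif23 in 7.97% and 5.90%. The median share of UMIs in called T cells was 14.8% over 20 S members and 29.7% over 13 G2M members. At most 9.24% of T cells were then called, and Mki67 stood highest at 72.4%. These shares are a description, and the calls and the genes come from the same cells.

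**Figure D5:**
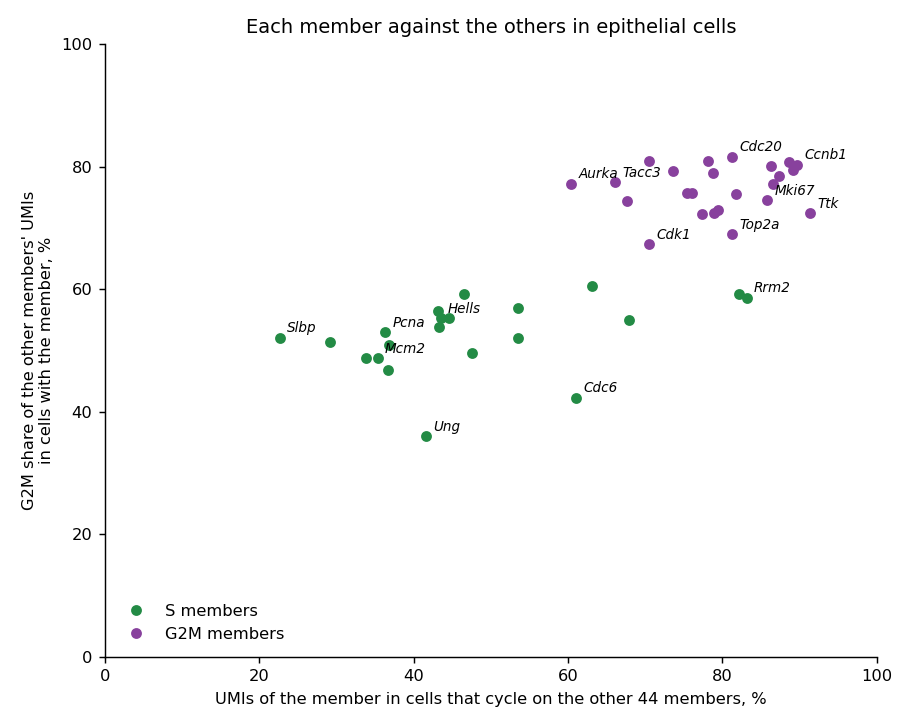
Each member in epithelial cells, by the percent of its UMIs that lie in cells called cycling on the other 44 members (x axis) and the G2M percent of the other members' UMIs in cells with that member (y axis), S members in green and G2M members in purple. All G2M members lie at or above 67.3% on the y axis and all S members at or below 60.5%, and Slbp lies farthest to the left at 22.7%.

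A further 7 lists of cycle genes were counted in the same fits, as a description. In epithelial cells 49.9% of all genes passed, 24.4% higher and 25.5% lower, and several of the counts that follow lie near these shares. There 8 of 17 genes of origin licensing and replication fell and none rose, with Pole2 (-0.71) and Prim1 (-0.58) lowest, and Tk1, the salvage kinase of thymidine, fell by 1.00 ± 0.15 (edgeR adjusted p = 0.00167). Of 17 spindle, kinetochore and condensin genes 2 rose (Ncapd2, 0.73, and Spc24, 0.40) and 15 did not pass, and the median of this list was 0.17. Of 8 G1 cyclins and kinases 4 fell, Ccne1 (-0.89), Cdk6 (-0.88), Ccnd1 (-0.53) and Cdk2 (-0.25), and Cdk4 rose (0.38). Of 7 CDK inhibitors Cdkn2a (-1.81 ± 0.10, edgeR adjusted p = 2.4e-09) and Cdkn2c (-1.19) fell and Cdkn1a rose (0.35). Of the regulators 4 rose and 4 fell, with Rb1 (0.76), Lin9 (0.61), E2f3 (0.52) and Rbl2 (0.42) higher and Lin54 (-0.56), E2f4 (-0.48), E2f5 (-0.44) and E2f1 (-0.38) lower, and Foxm1 (0.00 ± 0.17) and Mybl2 (0.06 ± 0.14) did not pass. Of 7 nucleotide supply genes 2 rose and 3 fell, and of 12 mitotic checkpoint genes 2 rose, Wee1 (0.61) and Pttg1 (0.58), and 1 fell, Fbxo5 (-0.60). The 8 of 15 regulators called either way are near the share of all genes.

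In fibroblasts, where 3.17% of all genes were called higher, 11 of 17 genes of the spindle list rose, with a median of 1.86 and Prc1, which bundles the midzone, at 2.82 ± 0.26 (edgeR adjusted p = 3.26e-07). Of 11 tested checkpoint genes Pttg1, securin (2.54), Cdc25b (2.17) and Mad2l1 (1.26) rose, and of 15 tested replication genes Ccna2 (1.69) and Gmnn (1.12). Tk1 rose (1.59 ± 0.31) where it fell in epithelial cells. These lists were counted in the fit with the batch term. Most fibroblast calls of members were lost with DESeq2, without the batch term or with thinned counts, and the lists were not counted under those settings. No G1 cyclin or kinase (8 tested) and no regulator (14 tested) passed, and of the 7 inhibitors Cdkn2c rose (0.93). In macrophages and in T cells no gene of the 7 lists passed, and in plasmacytoid dendritic cells, where 1.19% of genes were called lower, 2 G1 genes, Ccnd2 (-2.43) and Ccnd1 (-0.78), and 1 CDK inhibitor, Cdkn1a (-1.69), fell.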

How the data were processed

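Single cells of 5 tumour libraries were counted on the 10x 3' platform. The deposited values are raw UMI counts per gene and cell, made by the authors with Cell Ranger, version 8.0.1 per the file headers and 7.0.0 per the submitters' processing notes, which also name mm10. The labels state no cell filter. Barcodes with under 250 genes were left out, doublets were scored (scanpy 1.11.5) and removed at 0.8% per 1000 barcodes (40 to 274 per library), and cells were clustered (Leiden, leidenalg 0.10.2, resolution 1, 30 components, 20 neighbours) without 428 cell cycle and family genes. Clusters were named from marker lists, and 22 clusters gave 10 classes, with 6 T cell states. Shares used cells thinned to 2000 UMIs and classes with at least 20 such cells, with 95% Clopper-Pearson intervals that cover counting error only and a floor of 3 counts for a count of 0. Summed counts per class and library were tested in R 4.3.3 with edgeR 4.0.16 (quasi-likelihood, robust, TMM, filterByExpr, batch as covariate, at least 10 cells per library), with Benjamini-Hochberg adjustment over all genes and a threshold of 0.05. DESeq2 1.42.0 was an alternative. The edgeR fit of progesterone over placebo was run on simulated counts for epithelial cells, fibroblasts, macrophages and T cells. Those counts had a common dispersion per class and no batch effect, so they do not test the limits of the design given above.

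The members and lists were chosen with earlier results of these data known. Genes were named by a rule: Mki67, Top2a, Mcm5, Pcna and Cdk1 in each fitted class where tested, the 3 called members with the largest rise and the 3 with the largest fall per phase, and otherwise the 3 with the highest mean CPM. Further members were named after their values were seen. Batch, from the sample titles, served as the block. Deposited libraries hold 23409215 to 204786073 UMIs.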

Additional observations from a re-analysis of the deposited data

Results flagged for a closer look

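The effect of progesterone differed between fibroblasts and epithelial cells of batch 2 in a test of the difference itself (edgeR, library as a block). On the log2 scale the effect in fibroblasts minus that in epithelial cells was 2.96 for Plk1, 2.59 for Cdk1, 2.42 for Ube2c, 2.33 for Ccnb1, 1.58 for Mki67 and 1.19 for Top2a among G2M members. Among S members it was 2.48 for Ung, 2.17 for Cdc45, 1.35 for Tyms and 0.62 for Pcna. The comparison holds 1 placebo library and 2 progesterone libraries, and in fibroblasts a single cell held 46.4% of the G2M UMIs of Progesterone 2.

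Cells outside every named class also held cycle gene transcripts. Unnamed cluster 3, whose cells had a median UMI count of 0.0817 of their library's median and whose best-scoring markers were epithelial, had cycling shares of 24.3% (Progesterone 1, 37 of 152 thinned cells), 41.6% (Progesterone 2, 82 of 197) and 37.5% (Progesterone 3, of 291). Within the same cluster the placebo libraries had 22.4% (Placebo 1, 15 of 67) and 31.5% (Placebo 2, 45 of 143), so each progesterone library lay above the placebo library of its batch. The part of depth in these shares was not tested. Unnamed cluster 17, also scored best by epithelial markers, held 986 cells of Placebo 2 and 9 and 20 of Progesterone 2 and Progesterone 3. In Placebo 2 its median depth was 4377.5 UMIs and 145 of 802 thinned cells cycled (18.1%, 15.5 to 20.9%). These cells are outside the epithelial comparisons.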

How the results depend on the processing

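Counts of called members depended on the model. For most counts under other settings, here and above, the share of all genes called was not taken. In macrophages that share was 0.0504% with all libraries and 16.2% without Placebo 1. The counts therefore describe the settings and are no result about the members. With no replicate block (the batch term left out) epithelial members fell from 25 to 1 (G2M higher 0, S lower 1), fibroblast members from 25 to 0 (G2M higher 0) and activated CD4 T members from 2 to 0, and the other fitted classes stayed at 0. The cause was not tested. Summed counts thinned to the smallest library of a class left 15 epithelial members (9 G2M higher, 3 S lower) and 1 fibroblast member, a G2M gene, where fewer UMIs entered the fit, and 0 in activated CD4 T cells. DESeq2 gave 19 epithelial members (5 S lower), 4 in fibroblasts (4 G2M higher), 1 in macrophages and 0 in activated CD4 T cells. Without the cell with most G2M UMIs fibroblasts kept a count of 15 (13 G2M higher). Without a filter on low counts macrophages had 15 members, conventional dendritic cells 2 and T cells 4. Activated CD4 T cells had 0 with cell cycle genes kept in the clustering. Without 1 library at a time the counts ran from 0 to 36 in macrophages (8 without Placebo 1, 9 without Progesterone 1, 36 without Placebo 2), 0 to 2 in conventional dendritic cells (2 without Placebo 1 or Progesterone 1), 0 to 8 in T cells (8 without Placebo 2), 0 to 2 in regulatory T cells (2 without Placebo 2), 10 to 31 for epithelial over macrophage and 3 to 12 for T cell over macrophage. With no library block the count for epithelial over macrophage was 10, and with cell cycle genes in the clustering that for T cell over macrophage was 11.

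Differences in the share of cycling cells reversed without thinning in epithelial cells (-0.301), fibroblasts (-6.72), T cells (-2.57), regulatory T cells (-5.19), T cells minus macrophages (-14.1) and regulatory minus naive T cells (-9.18), and so did the G2M share of macrophages (-11.7). The last value takes in batch 1, which the thinned value leaves out. The macrophage difference reversed at 4000 UMIs (0.138), that of regulatory T cells at 5 members (-0.492) and regulatory minus naive T with doublets kept (-0.488). Without 1 library at a time the epithelial difference ran from -0.153 (without Progesterone 2) to 4.76.

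Single named genes that did not pass also changed sign (log2 ratios, progesterone over placebo). With counts thinned, epithelial Mcm5 was 0.051 and Top2a of regulatory T cells -0.32. With cell cycle genes in the clustering, macrophage Mki67 was 0.51 and Top2a 0.042, Mki67 of regulatory T cells 0.50, and over macrophages epithelial Mcm5 was 0.029, T cell Mki67 0.55 and Cdk1 0.41. With doublets kept, Pcna and Mcm5 of conventional dendritic cells were -0.11 and -0.011, epithelial over macrophage Mcm5 0.036, and T cell over macrophage Pcna 0.047, Mcm5 -0.13 and Top2a -1.16. With no replicate block, Mki67 of B cells was -0.95 and Cdk1 of T cells -0.10. With DESeq2, Mcm5 of activated CD4 T cells was -0.34. Without the cell with most G2M UMIs, a setting chosen after seeing the data like those without epithelial-high cells and on 1 phase alone, macrophage Mki67 was 0.39, T cell Mcm5 0.22 and Mki67 of regulatory T cells 0.86. Without 1 library at a time, macrophage Mki67 ran from -2.92 to 0.36 and Top2a from -4.63 to -0.31. In conventional dendritic cells Mcm5 ran from -1.55 to 1.205 and Cdk1 from -0.22 to 0.54, in T cells Mcm5 from -1.31 to 0.74 and Cdk1 from -0.74 to 2.44, and in regulatory T cells Mcm5 from -1.31 to 0.12 and Top2a from -0.39 to 0.51. Over macrophages, epithelial Mcm5 ran from -0.22 to 0.25, and in T cells Pcna from -0.35 to 0.20, Mki67 from -0.52 to 0.58, Mcm5 from -0.14 to 0.88, Cdk1 from -1.55 to 0.34 and Top2a from -0.11 to 1.40.

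Of the comparisons of shares and counts under all settings 272 were labelled the same, 39 moved and 11 reversed. For a difference in shares the same meant an unchanged sign, whatever its size. For a count it meant an equal or similar number, whatever the members' directions. With doublets kept a regulatory T cluster led by keratins left the T cells, so T cell, activated CD4 T and regulatory T fits were not made, and with cell cycle genes in the clustering the fibroblast cluster had no name. Without Placebo 2, Progesterone 2 or Progesterone 3 the epithelial, fibroblast and plasmacytoid dendritic cell comparisons could not be fitted with the batch term, nor could those of B cells and activated CD4 T cells with any library left out. Depth limits the T cells of batch 2, of which there are 36 to 91 per library, and the 16 macrophages of Placebo 1.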
